A study of Mus musculus with 4 samples.

Results

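ILC2s, the tissue-resident lymphocytes that release type 2 cytokines, carry receptors for neuropeptides and for lipid mediators. A total of 9 genes for such receptors and their partners were chosen by symbol from the deposited gene table, and 8 of them had a row among its 22554 genes. These were Calcrl and Ramp1 and Ramp3, which build receptors for calcitonin gene-related peptide (CGRP) and adrenomedullin, Nmur1 and Vipr2, which bind neuromedin U and vasoactive intestinal peptide, and Ptger4, Ptgir and Cysltr1, which bind prostaglandin E2, prostacyclin and cysteinyl leukotrienes. Ptgdr2, the receptor known as CRTH2, was not analysed here. None of the chosen genes is an adrenergic receptor. The genes were proposed with results of the same libraries in view, including the comparison of treated with untreated cells. Their differences between the groups are therefore given as a description. No p-value is printed for any of them, and where the passing of a threshold is stated, nothing is read from it.

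RNA was sequenced from ILC2s sorted from the lungs of BALB/c mice aged 6 weeks, by the study's methods as lineage-negative CD45+ CD127+ ST2+ cells, and kept overnight with IL-2, IL-7 and IL-33. One group of 2 libraries received vehicle and the other group of 2 libraries received compound 5D, a small molecule that blocks the Orai calcium channels. The labels give neither the dose of 5D nor the number of mice behind a library, and the study's text speaks of a full day in place of an overnight culture. Because the labels do not say that the libraries came from separate mice or cultures, the p-values measure only the spread between these libraries, which may be technical.

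Most of these receptors signal through heterotrimeric G proteins. CALCRL, VIPR2, EP4 (the product of Ptger4) and IP (the product of Ptgir) couple mainly to Gs, which raises cAMP. NMUR1 and CysLT1 (the product of Cysltr1) couple mainly to Gq, which releases calcium from internal stores. Neuromedin U, vasoactive intestinal peptide and cysteinyl leukotrienes are known as activators of ILC2s, prostaglandin E2 and prostacyclin as brakes on them, and CGRP as a brake on their proliferation whose effect on cytokines depends on the setting. CALCRL alone does not bind its peptides well. It needs a receptor activity modifying protein (RAMP), and with RAMP1 it forms the CGRP receptor, whereas with RAMP2 or RAMP3 it forms adrenomedullin receptors.

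The windows around the start sites of Calcrl and Ramp1 are shown because these genes encode the paired subunits of the CGRP receptor, and Calcrl is the chosen gene that differed most between the groups. Each runs from 250 bases before to 50 bases after the RefSeq start on GRCm38.p6, at chr2:84425217-84425516 on the minus strand for Calcrl and at chr1:91179572-91179871 on the plus strand for Ramp1. Capitals mark GGAAA, the core that NFAT factors bind, and TGACG, one end of the cAMP response element, on either strand, so that they also appear as TTTCC and CGTCA.
Calcrl: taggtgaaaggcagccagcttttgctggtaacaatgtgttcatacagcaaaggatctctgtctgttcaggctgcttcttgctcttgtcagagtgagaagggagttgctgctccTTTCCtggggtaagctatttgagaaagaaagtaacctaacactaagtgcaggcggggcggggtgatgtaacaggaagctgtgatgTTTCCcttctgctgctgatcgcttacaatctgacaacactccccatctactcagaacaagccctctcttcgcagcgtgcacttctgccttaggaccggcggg
Ramp1: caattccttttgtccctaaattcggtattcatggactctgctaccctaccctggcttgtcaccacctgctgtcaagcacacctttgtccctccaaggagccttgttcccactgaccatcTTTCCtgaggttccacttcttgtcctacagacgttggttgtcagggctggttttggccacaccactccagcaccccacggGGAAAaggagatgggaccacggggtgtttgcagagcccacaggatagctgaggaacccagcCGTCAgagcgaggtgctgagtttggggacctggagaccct
The Calcrl window held 2 matches to GGAAA, and the Ramp1 window held 2 matches to GGAAA and 1 to TGACG. Among all 32851 promoter windows of this length, 61.3% held GGAAA and 20.8% held TGACG, so these letters are common. Neither window held the full element TGACGTCA (1.79% of all windows), the AP-1 site TGACTCA (5.20%) or the GATA letters AGATAA or TGATAA (18.6%). Windows were found for 8 of the 9 chosen genes, and Cysltr1 had none. In those of Ramp3, Vipr2, Ptger4 and Ptgir, GGAAA was found 0, 1, 2 and 2 times. Nmur1 had 2 windows, and the one that starts at base 86388092 held 2 matches to GGAAA and 1 to TGATAA, while the other held none of the motifs. No motif overlapped another in the windows shown.

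The libraries held 23239853 and 20096555 counts with vehicle and 26912708 and 28697265 with 5D. Levels below are normalized CPM, which are counts per 1000000 of a library total adjusted by its upper quartile factor. All 12 ILC2 markers examined were present, from Thy1 at 12.2 ± 1.12 normalized CPM to Gata3, the lineage factor, at 1095 ± 5.54 (SD, n = 2 vehicle libraries each) and the cytokine gene Il5 at 4752 and 4710 in these libraries. Their summed level was 10849 to 11039 with vehicle and 10184 to 10625 with 5D, and its part in the results was not tested. Among markers of other cell types, Cd3g (T cells), Epcam (epithelium) and Pecam1 (endothelium), at 21.9 ± 0.441, 25.8 ± 0.398 and 22.5 ± 1.72 normalized CPM with vehicle (SD, n = 2 each), were above Thy1, and the rest were lower. The summed level of 4 T cell markers lay between 25.6 and 26.0 with vehicle and between 27.0 and 27.6 with 5D, most of it from Cd3g, and Cd4 was at 0 counts. The only B cell marker with a row, Cd79a, had 4 to 5 counts. The 5 macrophage and monocyte markers summed to 2.97 to 6.45 with vehicle and 4.16 to 4.72 with 5D, from Csf1r at 0 to 2 counts to Cd68 at 63 to 114. The 5 stromal markers summed to at most 0.560, with Col1a2 and Pdgfra at 0 counts, and the 4 NK cell and ILC1 markers to at most 1.94. The eosinophil marker Ear2 was at 0 counts, and so were Krt8 and Scgb1a1, whereas the epithelial adhesion gene Epcam had 510 to 792 counts.

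Across the 8 genes, Calcrl stood out with higher RNA in 5D-treated ILC2s, while the other 7 lay within 0.2 of no change on the log2 scale. Calcrl was the only one called at an adjusted p-value under 0.05 by edgeR's quasi-likelihood test, in a comparison where 0.0283% of the 17650 tested genes were called higher, 0.068% lower and 0.0963% in either direction. It was also the only one at an unadjusted p-value under 0.05, which 3.5% of all tested genes passed as higher, 3.84% as lower and 7.34% in either direction. Since the genes were chosen with this contrast known, nothing is read from that count. Both 5D libraries lay above both vehicle libraries for 3 of the 8 genes and below them for 0, where 18.7% and 18.8% of all tested genes did so (37.6% in either direction). The median log2 fold change of the 8 genes was 0.044, and that of all tested genes was -0.0016.

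**Figure D1:**
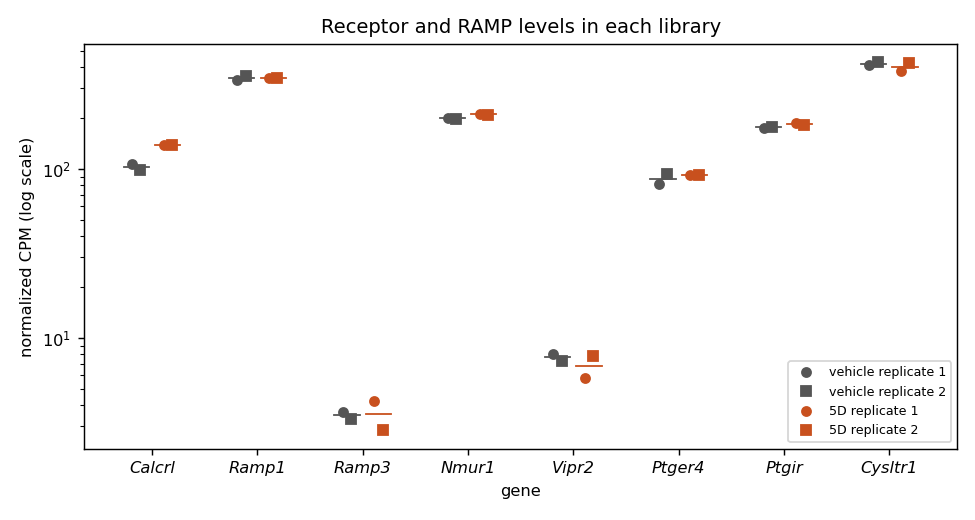
Level of each receptor or RAMP gene in each of the 4 libraries, as normalized CPM on a log axis. Points are libraries, with grey for vehicle, orange for 5D, circles for replicate 1 and squares for replicate 2, and short lines are group means. Both 5D libraries of Calcrl, at 138 and 139, sit above the vehicle libraries at 98.5 and 107, while the genes at the bottom, Ramp3 and Vipr2, spread widely within the 5D group.

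Calcrl (ENSMUSG00000059588.13, chromosome 2 of mm10 from 84330626 to 84425411, minus strand, 16 exon blocks) encodes the seven-pass receptor subunit that CGRP and adrenomedullin share. It had 2474 and 1971 counts with vehicle and 3747 and 3981 counts with 5D, which is 107 and 98.5 normalized CPM against 138 and 139. Both treated libraries were higher than both untreated ones, and they lay closer to each other than the untreated ones did. Group means were 103 ± 5.68 and 139 ± 0.824 normalized CPM (SD, n = 2 each), a log2 fold change of 0.44 (standard error 0.06) or 1.35-fold. Leaving out a library in turn kept the log2 fold change between 0.38 and 0.49. The call at an adjusted p-value under 0.05 was lost without 5D replicate 1, without 5D replicate 2 and in libraries thinned to the smallest total.

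Calcrl is also a gene of blood vessel lining, so markers of that cell type were examined beside it. Of 6 endothelial markers only Pecam1 had a row in the table used here. It was lower with 5D, at 23.7 and 21.3 normalized CPM with vehicle and 19.9 and 15.7 with 5D. This marker alone cannot give the share of endothelial cells, and their part in the level of Calcrl was not tested. Mast cell and basophil markers were higher with 5D in their sum, in overlapping ranges, but did not all go the same way. Mcpt8 had 30 and 9 counts with vehicle and 24 and 7 with 5D, a log2 fold change of -0.64. Cpa3 overlapped between the groups (79 and 25 against 81 and 74 counts), and Fcer1a was higher (20 and 11 against 25 and 61). The summed level of 6 such markers ranged from 3.50 to 5.98 normalized CPM with vehicle and from 5.93 to 10.6 with 5D, with the high value set by the tryptase gene Tpsb2 (10 and 25 against 31 and 161 counts), and Mcpt4 and Ms4a2 were at 0 counts. The part of these cells in the level of Calcrl was not tested. In bulk RNA, a change in the share of cells that carry a receptor cannot be told apart from a change in its RNA per cell.

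Ramp1 (ENSMUSG00000034353.14, chromosome 1 from 91179822 to 91225196), the partner that makes CALCRL a CGRP receptor, had 7752 and 7076 counts with vehicle and 9413 and 9796 with 5D. At 334 and 354 against 347 and 343 normalized CPM, the treated libraries lay between the untreated ones. The difference came to 0.0046 on the log2 scale (standard error 0.05), and it ran from -0.040 without vehicle replicate 1 to 0.044 without vehicle replicate 2. Per kilobase of exon, Ramp1 RNA was 5.06 and 5.80 times that of Calcrl with vehicle, against 4.06 and 3.98 times with 5D. The RNA of the partner thus exceeded that of the receptor in each library, by a smaller factor with 5D.

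Ramp3 (ENSMUSG00000041046.7, chromosome 11 from 6658521 to 6677475), which turns CALCRL into an adrenomedullin receptor, was near the bottom of the group. It had 85 and 66 counts with vehicle and 115 and 81 with 5D, or 3.66 and 3.30 against 4.24 and 2.83 normalized CPM. The 5D libraries lay on either side of the vehicle libraries. Its log2 fold change of 0.020 (standard error 0.29) turned to -0.30 without 5D replicate 1 and was 0.28 without 5D replicate 2, so neither direction could be told from these libraries. Part of its exons, 7.32% of their length, overlaps Gm11978 on the other strand.

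For the third RAMP gene, Ramp2, which is no member of the chosen group, 45 and 9 counts were found with vehicle and 23 and 23 with 5D, and 33.4% of its exon length lies under exons of Vps25 on the same strand. Ramp1 made up 97.2% and 97.9% of the summed RAMP RNA per kilobase with vehicle, against 97.2% and 98.0% with 5D. Expression of the family in these ILC2s was thus mostly Ramp1 in both groups. The peptide gene Calca, from which CGRP and calcitonin are made, had 374 and 234 counts with vehicle and 332 and 285 with 5D (log2 fold change -0.33 ± 0.19 SE, edgeR adjusted p = 0.762). Adm, which encodes adrenomedullin, and Adm2 had at most 6 counts in a library. The list of the CGRP family held 11 genes, of which 6 were tested, and the median log2 fold change was -0.028. Calcrl was the only one called, beside 0.0963% of all tested genes called in either direction. Since Calcrl was chosen with this contrast known, nothing is read from that count. Crcp, a gene named for a component of the CGRP receptor that also serves in RNA polymerase III, was at 47.0 ± 3.57 and 45.1 ± 1.76 normalized CPM (SD, n = 2 each).

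Nmur1 (ENSMUSG00000026237.5, chromosome 1 from 86386303 to 86426228), the neuromedin U receptor through which neurons of the airway and gut rouse ILC2s, had 4643 and 3945 counts with vehicle and 5722 and 5959 with 5D. Its normalized CPM was 200 and 197 against 211 and 208. Although both treated libraries were above both untreated ones, the difference was small, with a log2 fold change of 0.078 and a standard error of 0.05. Coefficients of variation were 0.987% with vehicle and 0.819% with 5D. Each rests on 2 libraries, too few to measure the spread, so the difference is not judged against them. Over the alternatives the log2 fold change stayed between 0.066 and 0.088.

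Vipr2 (ENSMUSG00000011171.11, chromosome 12 from 116077726 to 116146261), the VPAC2 receptor for vasoactive intestinal peptide, had 187 and 145 counts with vehicle and 158 and 222 with 5D. The levels of 8.05 and 7.25 against 5.82 and 7.76 normalized CPM overlapped. Its log2 fold change of -0.17 (standard error 0.21) moved to -0.40 without 5D replicate 2 and to 0.016 without 5D replicate 1, so the sign rests on a single library. Vipr1, the other receptor for the same peptide, had 12 and 1 counts with vehicle and 16 and 6 with 5D.

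Among the lipid receptors, Ptgir (ENSMUSG00000043017.9, chromosome 7 from 16906490 to 16910905), the prostacyclin receptor, had 4067 and 3523 counts with vehicle and 5050 and 5199 with 5D. At 175 and 176 against 186 and 182 normalized CPM, both treated libraries were higher. The log2 fold change was 0.067 (standard error 0.05) and stayed between 0.047 and 0.082 over the alternatives.

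Ptger4 (ENSMUSG00000039942.15, chromosome 15 from 5206661 to 5244187), the EP4 receptor for prostaglandin E2, had 1901 and 1854 counts with vehicle and 2507 and 2617 with 5D. Its levels of 81.8 and 92.6 against 92.4 and 91.5 normalized CPM overlapped, since vehicle replicate 2 was above both 5D libraries. The log2 fold change of 0.077 (standard error 0.08) was -0.014 without vehicle replicate 1 and 0.17 without vehicle replicate 2. Exons of Gm15937 on the other strand cover 15.3% of its exon length, with a shared stretch of 874 bases, and because the kit does not mark strand, reads of both genes cannot be told apart.

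Cysltr1 (ENSMUSG00000052821.3, chromosome X from 106574346 to 106603679), the receptor for leukotriene D4, had 9538 and 8532 counts with vehicle and 10220 and 12163 with 5D. The normalized CPM was 411 and 426 against 377 and 425, so that 5D replicate 1 was low and 5D replicate 2 lay between the vehicle libraries. The log2 fold change of -0.061 (standard error 0.06) was -0.15 without 5D replicate 2 and 0.020 without 5D replicate 1. Cysltr2, the second leukotriene C4 and D4 receptor, was lower in level at 16.5 ± 0.557 normalized CPM per kilobase against 79.7 ± 4.52 for Cysltr1 (SD, n = 4 libraries each).

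**Figure D2:**
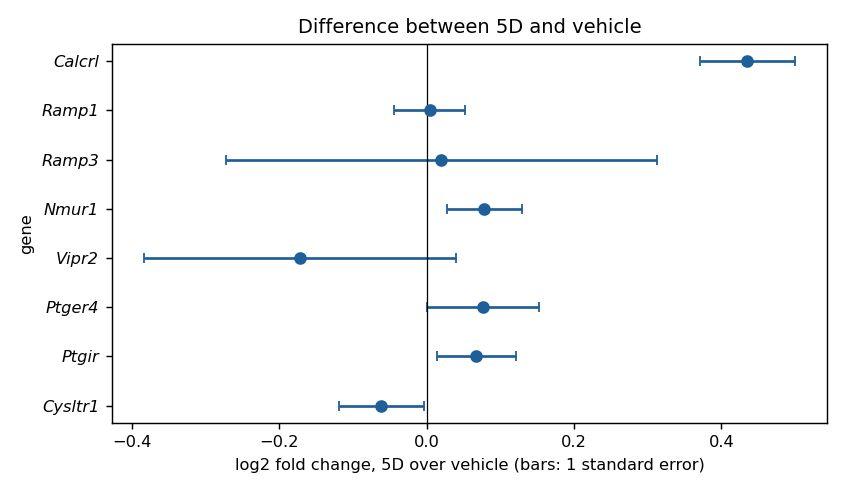
Difference between 5D and vehicle for each of the 8 genes, as the log2 fold change of the fit (horizontal axis), with bars of 1 standard error. Calcrl lies at 0.44 with a standard error of 0.06, the bars of Ramp1, Ramp3 and Vipr2 cross 0, and those of Ramp3 and Vipr2 are the widest at 0.29 and 0.21.

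Levels of different genes were compared per kilobase of annotated exon over all 4 libraries. Nmur1 was highest at 120 ± 3.89 normalized CPM per kilobase, followed by Ramp1 at 114 ± 2.75, Cysltr1 at 79.7 ± 4.52, Ptgir at 53.9 ± 1.55, Calcrl at 24.7 ± 4.33, Ptger4 at 13.5 ± 0.781, Ramp3 at 2.54 ± 0.430 and Vipr2 at 1.62 ± 0.222 (SD, n = 4 each). The ranges of Nmur1 and Ramp1 overlapped, and their order turned when the longest transcript was taken as the length, at 133 for Nmur1 and 148 for Ramp1. No other neighbours in the order overlapped with this length. With the longest transcript the ranges of Nmur1 and Ramp1 no longer overlapped, but those of Calcrl (20.2 to 28.5) and Ptger4 (21.7 to 24.6) did, and so did those of Ramp3 (2.13 to 3.18) and Vipr2 (1.72 to 2.38). Of all tested genes, 97.1% had a lower level per kilobase than Nmur1, 97.0% than Ramp1, 95.3% than Cysltr1 and 93.0% than Ptgir. Ramp3 and Vipr2 lay near the middle, with 49.7% and 43.9% of tested genes below them. The neuromedin U receptor and the CGRP partner were therefore among the more abundant transcripts of these cells, and the vasoactive intestinal peptide receptor was not.

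**Figure D3:**
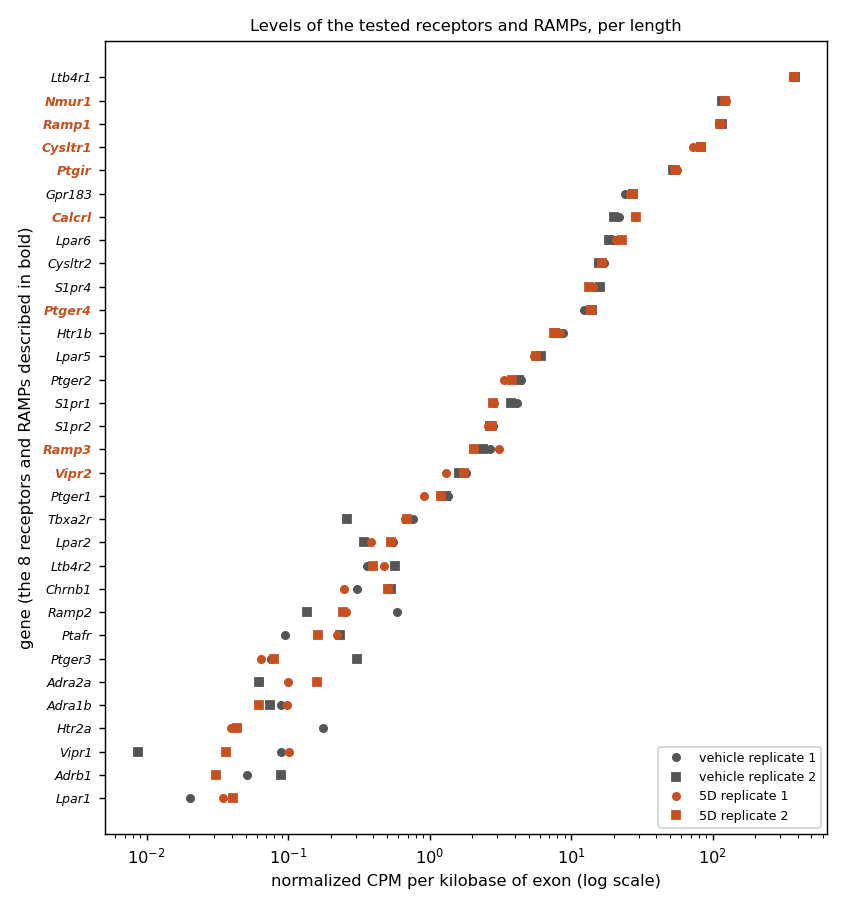
Level of 32 tested receptor and RAMP genes, as normalized CPM per kilobase of exon on a log axis, with 1 point per library (grey vehicle, orange 5D, circles replicate 1, squares replicate 2) and libraries at 0 counts not drawn. Of the 8 genes in bold, Nmur1, Ramp1, Cysltr1 and Ptgir stand just below Ltb4r1 at the top, and Vipr2 and Ramp3 stand in the middle.

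Beyond the chosen genes, 7 lists of the surrounding pathway were examined, covering receptors, G proteins, the cAMP machinery, receptor desensitisation and ligand supply. Of their 136 other genes 87 were tested, and 0 passed an adjusted p-value of 0.05 with edgeR's quasi-likelihood test, DESeq2 or limma-voom. DESeq2 gave no adjusted p-value to some of them, among them S1pr1, Gna14, Adcy9 and Ptges, so those could not pass with it. At an unadjusted p-value under 0.05 there were 4 higher and 4 lower genes with edgeR, 3 and 2 with DESeq2 and 4 and 4 with limma-voom. The edgeR count is 9.20% of the tested list genes, beside 7.34% of all tested genes. The median log2 fold change of these 87 genes was -0.016.

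Of the 28 neural receptor genes listed, 10 were tested, and apart from Nmur1 the only one above 10 normalized CPM was Htr1b, a serotonin receptor, at 38.6 ± 3.53 in untreated and 37.6 ± 2.94 in treated cells (SD, n = 2 each). Adra2a, an alpha-2 adrenergic receptor, had 7 and 6 counts with vehicle and 13 and 22 with 5D (edgeR adjusted p = 0.820), and Chrnb1, a nicotinic receptor subunit, had 17 to 37 counts per library. For this list, 0 of 10 genes were higher and 0 lower at an unadjusted p-value under 0.05, and the median log2 fold change was -0.086.

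Lipid receptors were better represented, with 19 of 28 listed genes tested. Ltb4r1, the high-affinity leukotriene B4 receptor, was above all 8 chosen genes in level, at 373 ± 5.02 normalized CPM per kilobase (SD, n = 4), and its libraries overlapped between the groups at a log2 fold change of -0.0060 ± 0.04 (SE, edgeR adjusted p = 0.997). Gpr183, an oxysterol receptor, was at 74.2 ± 7.45 and 77.4 ± 2.37 normalized CPM (SD, n = 2 each). At an unadjusted p-value under 0.05, 1 gene of this list was higher and 2 were lower, all named next. Lpar6, a lysophosphatidic acid receptor, was at 108 and 100 normalized CPM with vehicle and 113 and 124 with 5D (log2 fold change 0.19 ± 0.07 SE, edgeR adjusted p = 0.579). S1pr1, the sphingosine 1-phosphate receptor that guides lymphocyte egress, was at 12.6 and 11.4 against 8.73 and 8.53 (log2 fold change -0.48 ± 0.17 SE, edgeR adjusted p = 0.566). Ptger2, the EP2 receptor that shares its ligand and Gs coupling with EP4, was at 22.8 and 22.2 against 17.3 and 19.7 (log2 fold change -0.28 ± 0.13 SE, edgeR adjusted p = 0.673). Its level per kilobase of 3.95 was below that of Ptger4 at 13.5.

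The G proteins behind these receptors were abundant. Gnai2, of the inhibitory class, led the list with 253 normalized CPM per kilobase, and Gnas, the Gs subunit that Calcrl, Vipr2, Ptger4 and Ptgir products use, was at 89.0, Gnai3 at 85.0 and Gna15, of the Gq class, at 33.2. Gnas averaged 996 ± 7.97 normalized CPM in vehicle libraries and 996 ± 19.0 in treated ones (SD, n = 2 each), so that the log2 fold change was 0.00025 ± 0.04 (SE, edgeR adjusted p = 0.999). At an unadjusted p-value under 0.05, Gna12 was higher, at 61.6 and 63.7 against 74.4 and 73.4 normalized CPM (log2 fold change 0.24 ± 0.07 SE, edgeR adjusted p = 0.530). Gna14 was lower, at 7.97 and 5.60 against 4.61 and 4.72 (log2 fold change -0.54 ± 0.24 SE, edgeR adjusted p = 0.647). All 13 listed genes were tested. Exons of Amz1 on the other strand cover 13.3% of the exon length of Gna12, and antisense exons also lie over parts of Gnas, Lpar6, Ptger2, Htr1b and Alox5ap, whose values are uncertain to that extent.

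In the cAMP machinery, 21 of 28 listed genes were tested. Prkar1a, a regulatory subunit of protein kinase A, was at 170 normalized CPM per kilobase, the catalytic subunit genes Prkaca and Prkacb were at 37.3 and 13.2, and Adcy7, the most abundant adenylyl cyclase gene of the list, was at 32.2. Adcy7 averaged 218 ± 17.3 normalized CPM in vehicle libraries and 216 ± 5.65 in treated ones (SD, n = 2 each). The only gene at an unadjusted p-value under 0.05 was Adcy9, another adenylyl cyclase, with 33 and 28 counts against 76 and 60 (log2 fold change 0.79 ± 0.36 SE, edgeR adjusted p = 0.677). The list median was -0.042.

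Of the 19 desensitisation genes 16 were tested, and the most abundant per kilobase were the receptor kinase gene Grk2 at 72.3, the regulator of G protein signalling Rgs1 at 68.7, Grk6 at 56.8 and the arrestin gene Arrb2 at 44.9 normalized CPM per kilobase. Grk2, whose kinase marks occupied receptors for arrestin, was at 323 and 349 normalized CPM with vehicle and 306 and 315 with 5D (log2 fold change -0.11 ± 0.05 SE, edgeR adjusted p = 0.674), and it was the only gene of this list at an unadjusted p-value under 0.05.

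For ligand supply, 10 of 18 listed genes were tested. Ptges3, a cochaperone also known as cytosolic prostaglandin E synthase, led at 138 normalized CPM per kilobase, followed by the leukotriene pathway genes Alox5 at 22.0, Lta4h at 19.3 and Alox5ap at 5.16. Ptges, the inducible prostaglandin E synthase, was higher with 5D at 5.51 and 5.35 against 8.95 and 7.55 normalized CPM (log2 fold change 0.60 ± 0.20 SE, edgeR adjusted p = 0.552), with 107 to 243 counts per library. It was the only gene of this list at an unadjusted p-value under 0.05.

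**Figure D4:**
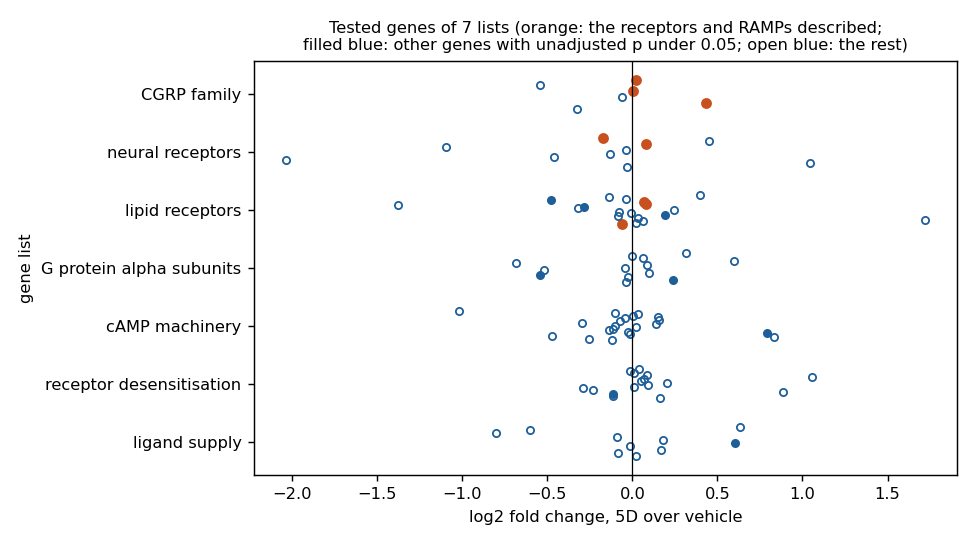
Log2 fold change of 5D over vehicle (horizontal axis) for the tested genes of the 7 lists, 1 row per list and 1 point per gene, with vertical scatter only to separate points. The 8 chosen genes are orange and, apart from Calcrl at 0.44, lie between -0.17 and 0.078, and of the 87 other genes 8 are filled for an unadjusted p-value under 0.05.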

How the data were processed

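Per the labels and the paper's methods, the authors sorted lung ILC2s, made cDNA with a low-input kit, sequenced on an Illumina NextSeq instrument, aligned reads with STAR (2.6.1 in the submitters' processing notes, which also name CASAVA 1.8.2) to mm10 with GENCODE M21, and quantified them in Partek. The deposited table holds estimated counts for each gene, not normalized, and 50.4% to 53.2% of a library's values were exactly whole. They were rounded to whole numbers. Symbols of 22080 of 22554 genes matched the GENCODE M21 copy, which gave coordinates and exon lengths. Promoter windows are from RefSeq on GRCm38.p6.

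Upper quartile factors were taken over all genes, and 4904 genes whose normalized counts averaged under 1 or summed to under 10 were left out, the rule in the paper's methods. The remaining 17650 were tested by edgeR 4.0.16 (quasi-likelihood, two-sided, no covariates, Benjamini-Hochberg) in R 4.3.3 (the study used Partek's GSA). A standard error (SE) was obtained by dividing the size of the log2 fold change by the square root of F. An exact permutation test of 2 against 2 libraries has a smallest p of 0.333, so none was run. Replicates exceeded counting noise (chi-square over degrees of freedom 6.10 with vehicle and 6.66 with 5D), so none was treated as a repeat deposit of another. This does not show that they are independent samples. The common biological coefficient of variation was 8.51%. The code was tested on simulated data. Near-identical stretches of at least 150 bases at 95% identity were searched with BLAST 2.17.0, and figures drawn with matplotlib 3.10.9.

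The chosen genes and all lists were set with earlier results of these data known. Genes named are the chosen ones and, from each list, the 4 most abundant per kilobase, any called, and the 3 with the smallest unadjusted p-values under 0.05, with some low genes added after their values were seen. Most marker lists add their lowest and highest genes and those at 0. The other stromal genes and the NK cell and ILC1 genes are given only within their sums. Alternatives were TMM or DESeq2 size factors, no filter, filterByExpr, DESeq2 1.42.0, limma-voom (limma 3.58.1), a replicate block, thinned libraries, each library left out, and the longest transcript as length. One gene of the receptor lists is counted in the list totals but is not reported here.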

Additional observations from a re-analysis of the deposited data

How the results depend on the processing

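Calcrl was higher with 5D in all 12 alternatives, and so were Nmur1 and Ptgir. The alternatives refit the same libraries, and for these genes both 5D libraries lay above both vehicle libraries. Leaving out a library could therefore hardly change the sign, and nothing further is read from it. Log2 fold changes of Ramp1, Ramp3, Vipr2, Ptger4 and Cysltr1 took both signs. The median of the 8 genes lay between 0.023 and 0.082 when a library was left out. The number of the 8 genes called was 1, and 0 in thinned libraries. With all genes, 5 were higher and 12 lower, 17 in all. These counts became 11, 35 and 46 with no filter, 17, 43 and 60 with DESeq2, 9, 23 and 32 with limma-voom, and 1, 1 and 2 in thinned libraries. The causes were not tested, and thinning holds fewer counts by construction. With the replicate number as a block, 9 genes were higher and 32 lower, 41 in all. The labels say nothing of a shared source behind a number, so whether the libraries were paired is not known. Deviations of same-numbered libraries correlated at 0.024 over 11184 genes, which cannot settle how the libraries were designed. The block changed no call on the 8 genes. Leaving out a library gave 3 to 73 higher, 12 to 107 lower and 15 to 180 genes in all, 0 to 1 of the 8 genes and 0 to 1 list genes. In these fits the lone library of a group is assumed to vary like the other group. The 73, 107 and 180 genes came without vehicle replicate 1, and 32, 47 and 79 without vehicle replicate 2. The list gene was Rgs16, without vehicle replicate 1, when the remaining vehicle library held 1 count (30, 1, 42 and 38 in all libraries, adjusted p = 0.00356 from edgeR). At an unadjusted p-value in place of the adjusted one, 8 list genes were counted in place of 0. The order of the 8 levels per kilobase was the same with library totals or TMM, and with the longest transcript 6 of 8 kept their place, while the level of Ptger4 went from 13.5 to 23.8 and its range overlapped that of Calcrl. Among the 8 genes, counts were lowest for Ramp3 and Vipr2, with at most 222 in a library. Ramp2, which is not one of them, had at most 45. The part of depth in the spread of Ramp3, Vipr2 and Ramp2 was not tested.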
